A study of Mus musculus with 20 samples.

Results

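The genes described here belong to the antioxidant and detoxification programme of the transcription factor NRF2, measured in 2 mouse hypothalamic cell lines exposed to serotonin. They were 10 genes chosen by name, namely the factor itself (Nfe2l2), its inhibitor (Keap1), and Hmox1, Nqo1, Txnrd1, Srxn1, Ephx1, Gstm1, Gsta4 and Osgin1. Only probe sets to which the array annotation gives a single symbol were considered, and the brightest on average stood for a gene that had more than 1. All 10 were found, each with 1 such probe set, among 18820 genes.

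The series held 5 groups of 4 arrays of total RNA. E46 cells (line HypoE-46, labelled serotonin sensitive) had received serotonin for 24 h at a dose that the sample titles give as 100 µg/ml or as 1 µg/ml, or were controls. A2/12 cells (line HypoA-2/12, labelled as unresponsive to serotonin) had received serotonin titled 100 µg/ml, or were controls. All groups had been kept without serum for 4 h beforehand. Each line is an immortalised clone, so a difference between the lines is a difference between 2 clones. For the E46 arrays, a second label exchanges the doses 100 and 1, whereas both labels agree for A2/12. Doses below are those of the titles and are written as "labelled 100" and "labelled 1". The labels number the arrays of a group as replicates without saying that they came from separate cultures, so the p-values measure the spread between these arrays, and 4 arrays a group limit the precision.

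NRF2 is held at a low level by KEAP1, an adaptor that presents it to a ubiquitin ligase. Oxidants and electrophiles modify KEAP1, and NRF2 then enters the nucleus, pairs with small MAF proteins and binds antioxidant response elements in the promoters of its target genes. Those targets make glutathione, reduce thioredoxin, break down heme, conjugate or reduce reactive compounds and supply NADPH. Several also have binding sites for AP-1 and other factors, so their levels do not follow NRF2 alone.

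Levels are the deposited log2 values of the robust multi-array average (RMA). A difference of 1 is a 2-fold difference, and levels of different genes are not compared, because probes differ in brightness. Correlations between arrays over all probe sets lay between 0.927 and 0.995. The level under which 95% of 1170 odorant, pheromone and trace amine receptor genes lay, 4.35 to 4.67 over the groups, served as background, and all 10 genes lay above it in all groups. Of 7 measured neuron markers, 4 or 5 were above background in each group, Map2, Eno2, Stmn2 and Syt1 in all of them, while Snap25 and Rbfox3 were at background. Of 5 fibroblast and mesenchymal markers, 4 were above background in every group, with Col1a1 at 11.7 ± 0.08 in E46 controls and 11.6 ± 0.11 in A2/12 controls (SD, n = 4 each). The list of microglia and macrophage markers was raised on 1 array, A2/12 control replicate 4, where Csf1r was 6.50 against 3.84 to 4.15 on the other A2/12 control arrays. Oligodendrocyte markers were at background throughout (0 of 2), as were endothelial ones (0 of 3) except in A2/12 cells with serotonin (1 of 3). In bulk RNA such as this, fewer cells of a type and less RNA per cell cannot be told apart.

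RefSeq promoter windows (build GRCm38.p6, 250 bases before to 50 after a start site) were given for 8 of the 10 genes, in 11 windows; Hmox1 and Gsta4 had no entry. They were searched on both strands for the core of the antioxidant response element, TGACNNNGC, and for an AP-1 site, TGANTCA. The core was found in 3 of the 11 windows, each of another gene, against 12.4% of all 32851 windows in the table. These 3 sites are shown because they are the only matches to this core in the windows of the genes described. Each is a 29-base stretch written 5′ to 3′ in the direction of the gene, with the core in capitals, and the Txnrd1 and Srxn1 cores read on the opposite strand, as TGACAAAGC and TGACCTAGC. The Nfe2l2 core began 240 bases before the start site (chr2:75704885-75704913 for the stretch, minus strand), that in the second of 3 Txnrd1 windows 92 bases before (chr10:82859104-82859132, plus strand), and that of Srxn1 29 bases after (chr2:152105542-152105570, plus strand).
Nfe2l2 site: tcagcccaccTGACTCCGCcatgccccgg
Txnrd1 site: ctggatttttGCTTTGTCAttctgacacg
Srxn1 site: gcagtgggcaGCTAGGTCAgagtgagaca

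AP-1 matches stood in 2 of the 11 windows, those of Srxn1 (102 and 45 bases before the start site) and Osgin1 (97 bases before), against 7.81% of all windows. None overlapped a match to the core as searched, TGACNNNGC. The Srxn1 match 45 bases before the start site and, on the opposite strand, the Osgin1 match read TGAGTCAGC with the bases that follow. This differs from the core only by a G in place of its C before the free letters, and other forms of the element were not searched. The 250 bases before the start site are shown for both, with the AP-1 match in capitals, and for Nqo1 and Ephx1, the members whose responses differed most between the lines and in whose windows neither motif was matched. The windows are chr2:152105274-152105523 (Srxn1, plus strand), chr8:119436897-119437146 (Osgin1, plus strand), chr8:107403206-107403455 (Nqo1, minus strand) and chr1:181017570-181017819 (Ephx1, minus strand). A match is only a run of letters, and its absence says only that the letters are not in that window.
Srxn1 promoter: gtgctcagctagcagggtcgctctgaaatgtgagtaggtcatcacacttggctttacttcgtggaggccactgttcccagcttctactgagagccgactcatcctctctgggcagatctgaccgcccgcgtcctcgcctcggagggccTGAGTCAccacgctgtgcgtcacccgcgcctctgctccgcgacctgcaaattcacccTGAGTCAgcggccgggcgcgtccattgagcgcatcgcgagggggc
Osgin1 promoter: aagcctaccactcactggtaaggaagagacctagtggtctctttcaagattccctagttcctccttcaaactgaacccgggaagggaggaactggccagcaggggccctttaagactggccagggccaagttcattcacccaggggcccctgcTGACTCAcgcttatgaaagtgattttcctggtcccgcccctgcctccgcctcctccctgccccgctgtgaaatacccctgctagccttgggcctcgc
Nqo1 promoter: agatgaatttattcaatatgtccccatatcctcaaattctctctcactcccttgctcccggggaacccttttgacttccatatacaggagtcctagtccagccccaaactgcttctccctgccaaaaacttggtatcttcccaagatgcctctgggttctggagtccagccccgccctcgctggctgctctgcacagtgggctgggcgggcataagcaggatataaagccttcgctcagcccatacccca
Ephx1 promoter: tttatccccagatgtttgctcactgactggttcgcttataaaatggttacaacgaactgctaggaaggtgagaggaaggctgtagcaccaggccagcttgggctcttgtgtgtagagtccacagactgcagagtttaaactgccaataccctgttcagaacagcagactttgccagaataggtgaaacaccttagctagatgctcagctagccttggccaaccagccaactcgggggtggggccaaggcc

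Serotonin labelled 100 changed most of these genes in both lines, but not the same way. In E46 cells Hmox1, Gsta4, Nqo1, Txnrd1 and Srxn1 rose 2.43- to 4.00-fold, and Nfe2l2 and Osgin1 rose 1.32- and 1.25-fold. Ephx1 and Gstm1 fell there 1.48- and 1.28-fold. A2/12 cells likewise had a strong rise of Hmox1 and smaller rises of Txnrd1 and Srxn1. In them Nqo1 and Keap1 fell 1.42- and 1.36-fold, and Ephx1 and Gstm1 fell 5.38- and 4.33-fold. In the limma fit of all genes with Benjamini-Hochberg adjustment and a threshold of 0.05, 7 of the 10 rose in E46 cells, where 20.3% of all genes were called higher, and 2 fell, where 19.3% were called lower. Of the same 10, 4 rose in A2/12 cells, against 24.8% of all genes, and 4 fell, against 21.1%. Groups did not overlap for 8 of the 10 in E46 cells, against 40.4% of all genes, and for 7 in A2/12 cells, against 43.3%. The median change of the 10 was 0.84 on the log2 scale in E46 cells (-0.003 over all genes) and 0.06 in A2/12 cells (0.002 over all genes).

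**Figure D1:**
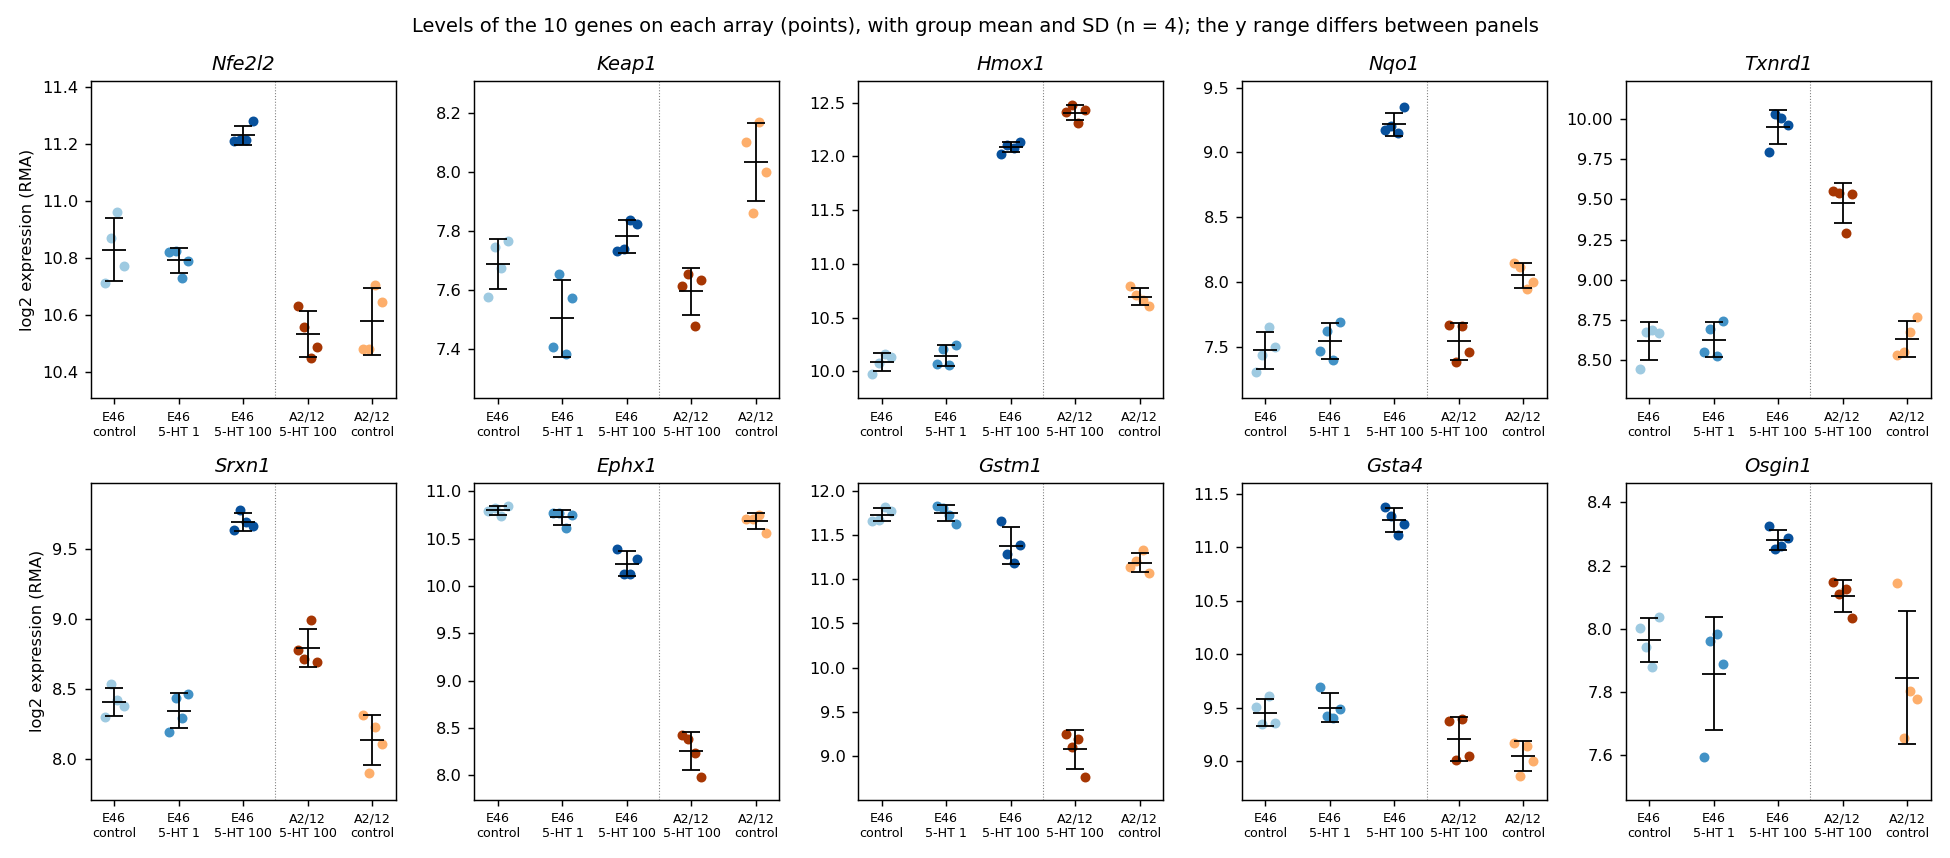
Log2 level (y axis, a separate range in each panel) of each of the 10 genes on every array, by group (x axis, 5-HT being serotonin with its labelled dose in µg/ml). Points are arrays, and bars are the group mean and SD (n = 4). Hmox1, Txnrd1 and Srxn1 are higher with serotonin labelled 100 in both lines, Nqo1 and Gsta4 are highest in E46 cells labelled 100, and Ephx1 and Gstm1 are lowest in A2/12 cells labelled 100.

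Means of 3 cell type marker lists were lower with the same treatment, though not every gene on them was. Array means of the 5 fibroblast and mesenchymal markers were 7.83 to 8.43 in E46 cells labelled 100 and 9.35 to 9.44 in E46 controls, and 7.70 to 8.25 in A2/12 cells labelled 100 and 10.2 to 10.4 in A2/12 controls. Those of the 7 neuron markers were 5.46 to 5.62 in E46 cells labelled 100 and 5.79 to 5.95 in E46 controls, and 5.72 to 5.78 in A2/12 cells labelled 100 and 6.47 to 6.65 in A2/12 controls. The 5 astrocyte markers had array means of 4.89 to 5.04 in E46 cells labelled 100 and 5.46 to 5.60 in E46 controls, and of 4.15 to 4.42 in A2/12 cells labelled 100 and 4.54 to 4.60 in A2/12 controls. Single genes did not all follow the list means. In E46 cells Map2 was 8.64 labelled 100 and 10.4 in controls, while Eno2 was 8.25 and 8.05. Slc1a3 there was 8.42 and 10.2, while Gfap and Aqp4 were at background. Outside these lists, mean Cd68 was higher with serotonin labelled 100 in both lines (8.63 against 8.03 in E46, 8.28 against 7.50 in A2/12). The A2/12 groups overlapped, because Cd68 on A2/12 control replicate 4 was 8.55, above every A2/12 array with serotonin. Cd68 belongs to the microglia and macrophage list, whose array means overlapped between serotonin labelled 100 and controls in both lines. Mean Cdh5 was higher in A2/12 cells with serotonin than in A2/12 controls (5.87 against 4.30). The part of these genes and of all 3 lists in the changes below was not tested.

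Nfe2l2, which encodes NRF2, had levels of 11.21, 11.21, 11.21 and 11.28 on the E46 arrays labelled 100, against 10.71, 10.87, 10.96 and 10.77 on the E46 control arrays. The groups did not overlap. The change was 0.40 ± 0.07 on the log2 scale (± is the standard error for every change from here on), a 1.32-fold rise (limma, adjusted p = 7.16e-05). Nfe2l2 in A2/12 cells was 10.63, 10.56, 10.45 and 10.49 with serotonin, against 10.48, 10.48, 10.70 and 10.65 in controls. These values overlapped, and the difference had a 95% confidence interval of -0.19 to 0.10 (limma, adjusted p = 0.679). The response of Nfe2l2 was higher in E46 than in A2/12 cells, by 0.45 ± 0.10 (limma, adjusted p = 0.0019).

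Keap1, the adaptor that restrains NRF2, gave 7.73, 7.74, 7.84 and 7.83 on the E46 arrays labelled 100, against 7.58, 7.75, 7.67 and 7.77 in E46 controls. The groups overlapped, and the interval of the difference was -0.07 to 0.26 (limma, adjusted p = 0.406). On the A2/12 arrays with serotonin it was 7.61, 7.66, 7.48 and 7.63, against 8.10, 7.86, 8.17 and 8.00 in A2/12 controls. Here every array with serotonin lay below every control array, and Keap1 fell by 0.44 ± 0.08 on the log2 scale (limma, adjusted p = 6.66e-05). The response in E46 exceeded that in A2/12 by 0.53 ± 0.11 (limma, adjusted p = 0.00107). For the transcripts of the factor and its restraint, then, the change was in Nfe2l2 in the one line and in Keap1 in the other, and both differences between the lines passed the test.

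Hmox1, the inducible heme oxygenase that splits heme into biliverdin, iron and carbon monoxide, had the largest rise of the 10 genes in both lines. Its levels were 12.03, 12.11, 12.08 and 12.14 in E46 cells labelled 100, against 9.98, 10.07, 10.16 and 10.14 in E46 controls, a 4.00-fold rise of 2.00 ± 0.07 (limma, adjusted p = 2.37e-14). In A2/12 cells they were 12.41, 12.48, 12.31 and 12.43 with serotonin, against 10.79, 10.71, 10.66 and 10.61 in controls, a 3.28-fold rise of 1.71 ± 0.07 (limma, adjusted p = 2.95e-14). No array of a group with serotonin labelled 100 overlapped its controls, and 37 genes of 18820 rose more in E46 cells and 116 in A2/12 cells. A2/12 cells started higher and ended higher, and all 4 of these groups were apart from one another. The rise was larger in E46 by 0.29 ± 0.09 (limma, adjusted p = 0.0313). That call was lost when 1 of 7 arrays was left out, namely E46 control replicates 1 or 2, E46 labelled 100 replicates 2 or 4, A2/12 control replicates 1 or 2, or A2/12 serotonin replicate 3, with differences of 0.25 to 0.28 (limma, adjusted p 0.0507 to 0.0689).

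Nqo1, a quinone reductase that is a classic NRF2 target, moved in opposite directions. It gave 9.17, 9.20, 9.15 and 9.35 in E46 cells labelled 100, against 7.30, 7.43, 7.65 and 7.50 in E46 controls, a 3.36-fold rise of 1.75 ± 0.09 (limma, adjusted p = 5.50e-12). A2/12 cells gave 7.67, 7.38, 7.66 and 7.45 with serotonin, against 8.14, 8.12, 7.94 and 8.00 in controls. All A2/12 arrays with serotonin lay below all A2/12 control arrays, a fall of 1.42-fold (log2 change -0.51 ± 0.09, limma, adjusted p = 6.15e-05), whereas all E46 arrays labelled 100 lay above their controls. The responses differed by 2.26 ± 0.13 (limma, adjusted p = 1.01e-10), and 81 genes had a larger difference in that direction. With serotonin the A2/12 levels overlapped those of E46 controls.

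Txnrd1, the cytosolic enzyme that reduces thioredoxin with NADPH, rose in both lines. It was at 9.80, 10.03, 10.01 and 9.97 in E46 cells labelled 100, against 8.45, 8.68, 8.69 and 8.67 in E46 controls, and at 9.55, 9.54, 9.29 and 9.53 in A2/12 cells with serotonin, against 8.53, 8.55, 8.68 and 8.77 in A2/12 controls. The control groups of both lines overlapped, and the groups with serotonin labelled 100 stood above them and apart from each other. The rise was 1.33 ± 0.08 in E46 (2.52-fold, limma, adjusted p = 7.72e-11) and 0.85 ± 0.08 in A2/12 (1.80-fold, limma, adjusted p = 2.79e-08). It was larger in E46 by 0.48 ± 0.12 (limma, adjusted p = 0.00472).

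Srxn1, sulfiredoxin, which repairs over-oxidised peroxiredoxins, had both motifs in its window (sequences above). Its levels were 9.63, 9.78, 9.69 and 9.66 in E46 cells labelled 100, against 8.30, 8.54, 8.42 and 8.38 in E46 controls. In A2/12 cells they were 8.78, 8.72, 8.99 and 8.69 with serotonin, against 8.31, 7.90, 8.23 and 8.11 in controls. Neither pair overlapped. The rise was 1.28 ± 0.09 in E46 (2.43-fold, limma, adjusted p = 3.56e-10) and 0.66 ± 0.09 in A2/12 (1.58-fold, limma, adjusted p = 2.97e-06), larger in E46 by 0.63 ± 0.13 (limma, adjusted p = 0.000945).

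Ephx1, microsomal epoxide hydrolase, fell in both lines and far more in A2/12. Its levels were 10.39, 10.13, 10.13 and 10.29 in E46 cells labelled 100, against 10.79, 10.82, 10.74 and 10.85 in E46 controls, a change of -0.57 ± 0.09 (limma, adjusted p = 1.83e-05). They were 8.42, 8.39, 8.23 and 7.98 in A2/12 cells with serotonin, against 10.71, 10.71, 10.75 and 10.56 in A2/12 controls, a change of -2.43 ± 0.09 (limma, adjusted p = 1.53e-14). Both control groups overlapped and both treated groups lay below them without overlap, with A2/12 lowest. The responses differed by 1.86 ± 0.12 (limma, adjusted p = 7.71e-10).

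Gstm1, a mu-class glutathione transferase, was likewise lowest in A2/12 cells with serotonin, while its other groups were ordered differently. It was at 11.66, 11.29, 11.18 and 11.39 in E46 cells labelled 100, against 11.66, 11.67, 11.82 and 11.77 in E46 controls. One E46 array labelled 100, replicate 1, lay at the level of the lowest controls, and the change was -0.35 ± 0.11 (limma, adjusted p = 0.0102). Gstm1 in A2/12 cells gave 9.25, 9.10, 9.19 and 8.76 with serotonin, against 11.14, 11.20, 11.33 and 11.07 in controls, a change of -2.11 ± 0.11 (limma, adjusted p = 7.61e-13). Those groups stood far apart, and the responses of the lines differed by 1.76 ± 0.15 (limma, adjusted p = 1.76e-08). Mu-class genes are close copies of each other, and probes may read more than 1 of them, so the share of Gstm1 itself is uncertain.

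Gsta4, an alpha-class transferase that conjugates aldehydes of lipid peroxidation, rose in E46 cells. It was 11.38, 11.30, 11.11 and 11.22 in E46 cells labelled 100, against 9.51, 9.34, 9.61 and 9.35 in E46 controls, a 3.48-fold rise of 1.80 ± 0.10 (limma, adjusted p = 1.93e-11). Its A2/12 levels were 9.38, 9.01, 9.39 and 9.05 with serotonin, against 9.17, 8.86, 9.14 and 8.999 in controls. These overlapped, and the difference had an interval of -0.05 to 0.38 (limma, adjusted p = 0.222). The responses differed by 1.64 ± 0.14 (limma, adjusted p = 3.27e-08). The 2 transferases among the 10 genes thus had different patterns, Gsta4 changing in E46 and Gstm1 falling mainly in A2/12.

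Osgin1, an oxidative stress induced growth inhibitor, changed least among the genes that passed the test in both lines. Its levels were 8.33, 8.25, 8.26 and 8.29 in E46 cells labelled 100, against 8.00, 7.94, 7.88 and 8.04 in E46 controls, without overlap, and it rose by 0.32 ± 0.09 (limma, adjusted p = 0.00866). On the A2/12 arrays it was 8.15, 8.11, 8.12 and 8.03 with serotonin, against 8.14, 7.66, 7.80 and 7.78 in controls. Replicate 1 of the A2/12 controls lay among the arrays with serotonin, and the rise was 0.26 ± 0.09 (limma, adjusted p = 0.0265). This call was lost on leaving out A2/12 control replicate 2, 3 or 4 or A2/12 serotonin replicate 1, 2 or 3, with values of 0.20 to 0.26 (limma, adjusted p 0.0511 to 0.109), and with each line fitted alone (0.26, adjusted p = 0.0588). The difference between the lines was 0.06, with an interval of -0.22 to 0.33 (limma, adjusted p = 0.822).

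**Figure D2:**
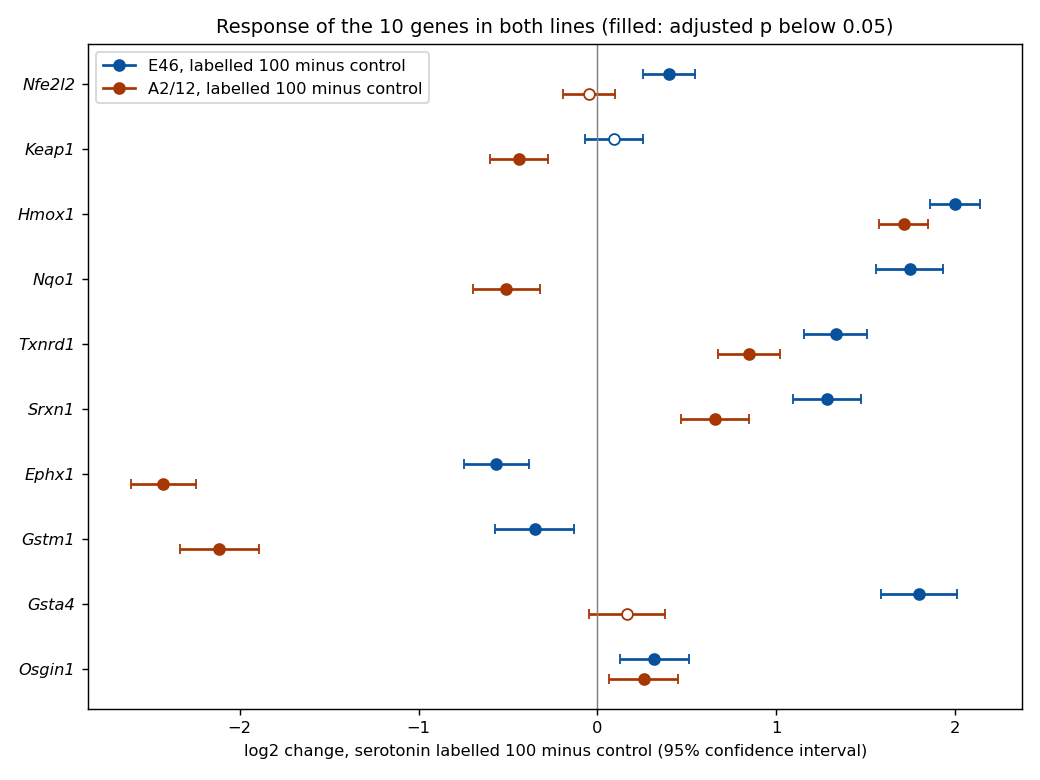
Log2 change with serotonin labelled 100 minus control (x axis) for the 10 genes (y axis), in E46 cells (blue, upper of each pair) and A2/12 cells (brown, lower of each pair). Points are the fitted changes, bars their 95% confidence intervals, and filled points passed an adjusted p of 0.05. Nqo1 lies on opposite sides of 0 in the lines, and the intervals of the lines overlap for Osgin1 alone.

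The difference between the lines can be stated for the 10 genes together as counts. In the test of the difference itself, 9 of 10 had the higher response in E46, where 11.1% of all genes were called, and 0 the lower, where 10.9% were called; Osgin1 was the one that did not pass. The median difference was 0.58 for the 10 genes and -0.02 for all genes. This count includes genes that rose more in E46 (Hmox1, Txnrd1, Srxn1), genes that changed in E46 while no change was called in A2/12 (Nfe2l2, Gsta4), genes that fell less (Ephx1, Gstm1), Keap1, for which only the fall in A2/12 was called, and Nqo1. The dots of all genes in the plot of both lines followed the diagonal broadly, with Nqo1 and Gsta4 to the right of it and Ephx1 and Gstm1 below it.

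**Figure D3:**
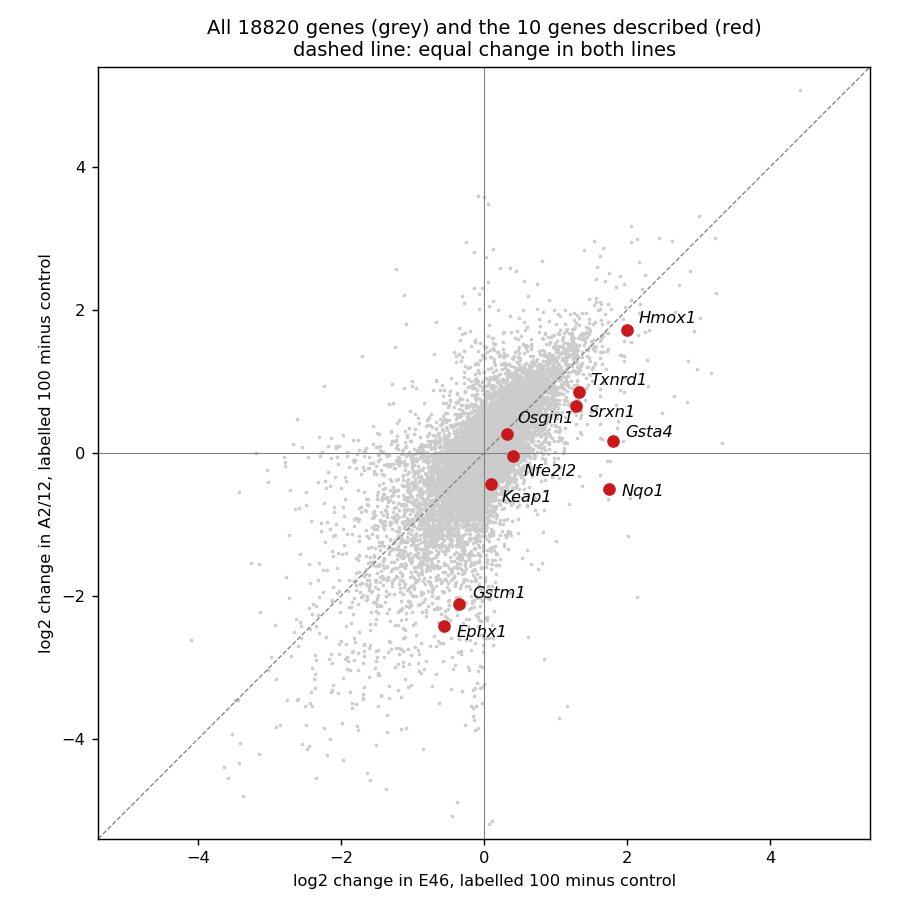
Log2 change with serotonin labelled 100 minus control in E46 cells (x axis) and in A2/12 cells (y axis) for all 18820 genes (grey) and the 10 described (red, named). The dashed line marks an equal change in both lines. Hmox1 lies near it at 2.00 and 1.71, Nqo1 at 1.75 and -0.51, and Ephx1 at -0.57 and -2.43.

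The numbers 5, 7 and 9 in the names of the scans each hold arrays of all 5 groups, and changes were also fitted within each. In E46 cells Hmox1 (1.94 to 2.02), Gsta4 (1.69 to 1.96), Nqo1 (1.55 to 1.83), Txnrd1 (1.21 to 1.45) and Srxn1 (1.11 to 1.36) passed the test in all 3, Ephx1 (-0.69 to -0.48) in 1, and Nfe2l2 (0.25 to 0.47), Gstm1 (-0.54 to -0.15) and Osgin1 (0.24 to 0.38) in none of them. In A2/12 cells Hmox1 (1.61 to 1.81), Ephx1 (-2.51 to -2.37) and Gstm1 (-2.23 to -1.92) passed in all 3, Txnrd1 (0.64 to 0.99) and Srxn1 (0.49 to 0.83) in 2, and Nqo1 (-0.56 to -0.41), Keap1 (-0.57 to -0.24) and Osgin1 (0.16 to 0.43) in 1. A number holds at most 2 arrays of a group, and each of these changes kept its sign in every one. The row letters of the scans follow the group order, so the line and the row cannot be told apart. Within a line the serotonin groups also lie in later rows than the controls (E46 controls A and B, labelled 100 B and C, labelled 1 C and D, A2/12 controls E and F, serotonin F and G). The fits within a number do not separate serotonin from the row.

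At the dose labelled 1, no gene of the 10 passed the test in E46 cells, and only 2 of all genes did (0.0106%). The levels on the 4 arrays labelled 1 were 10.06 to 10.24 for Hmox1, 7.40 to 7.69 for Nqo1, 9.40 to 9.69 for Gsta4, 8.52 to 8.74 for Txnrd1 and 8.19 to 8.46 for Srxn1, and each range overlapped that of the E46 controls. Those of the others were 10.73 to 10.82 for Nfe2l2, 7.38 to 7.65 for Keap1, 10.61 to 10.77 for Ephx1, 11.63 to 11.83 for Gstm1 and 7.60 to 7.98 for Osgin1, and they overlapped the controls too. The 10 changes ran from -0.19 to 0.07 on the log2 scale. By limma 1 of them, Keap1 (-0.19 ± 0.08), had an unadjusted p below 0.05 (adjusted p = 0.266), as had 2993 of all genes. The interval for Hmox1 was -0.08 to 0.20 and that for Nqo1 -0.12 to 0.26, so larger changes lay outside the intervals for these genes.

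Set against the arrays labelled 1 in place of controls, the E46 arrays labelled 100 differed in all 10 genes. By limma 8 were higher, where 23.6% of all genes were called, and 2 (Ephx1 and Gstm1) were lower, where 17.8% were called. This comparison shares the arrays labelled 100 with the one against controls, so the values are given side by side. Hmox1 differed by 1.94 ± 0.07, Gsta4 by 1.75 ± 0.10, Nqo1 by 1.68 ± 0.09, Srxn1 by 1.35 ± 0.09 and Txnrd1 by 1.32 ± 0.08. Keap1, for which no change against controls was called, was higher by 0.28 ± 0.08 than on the arrays labelled 1 (limma, adjusted p = 0.00597). Without the arrays of low upper quartile (E46 control replicate 1, E46 labelled 1 replicates 1 and 3, A2/12 control replicate 2), Keap1 was at 0.17 (adjusted p = 0.0831) and Gstm1 at -0.33 (adjusted p = 0.0699), and neither passed. With the doses of the second label, the groups labelled 100 and 1 of E46 change places and so do all their values.

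Without serotonin the lines already differed. By limma 4 of the 10 genes were higher in E46 controls than in A2/12 controls, against 21.1% of all genes, and 3 were lower, against 18.1%. Gstm1 was higher by 0.55 ± 0.11 (adjusted p = 0.000232), Gsta4 by 0.41 ± 0.10 (adjusted p = 0.00259), Srxn1 by 0.27 ± 0.09 (adjusted p = 0.021) and Nfe2l2 by 0.25 ± 0.07 (adjusted p = 0.00609). Hmox1 (-0.61 ± 0.07, adjusted p = 1.75e-07), Nqo1 (-0.58 ± 0.09, adjusted p = 2.11e-05) and Keap1 (-0.34 ± 0.08, adjusted p = 0.00117) were lower in E46 controls. Nqo1 and Keap1, both higher in A2/12 controls, were also genes that fell in A2/12 cells with serotonin. Hmox1, likewise higher in A2/12 controls, rose there, and Ephx1 and Gstm1, which fell most in A2/12, were not called higher in A2/12 controls. Intervals were -0.19 to 0.16 for Txnrd1, -0.07 to 0.30 for Ephx1 and -0.07 to 0.31 for Osgin1, none of which passed. The Srxn1 difference did not pass without E46 control replicate 2 (0.23, adjusted p = 0.0759) or A2/12 control replicate 2 (0.19, adjusted p = 0.0959), and the Osgin1 difference passed without A2/12 control replicate 1 (0.22, adjusted p = 0.0395).

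Ordered by group mean, the 10 genes fell into a few patterns. E46 cells labelled 100 stood above every other group, without overlap with the next, for Nfe2l2, Nqo1, Txnrd1, Srxn1, Gsta4 and Osgin1. For Hmox1 the highest group was A2/12 with serotonin (mean 12.4), followed by E46 labelled 100 (12.1), A2/12 controls (10.7) and then E46 labelled 1 and E46 controls (both 10.1), and only the last pair overlapped. For Ephx1 and Gstm1, A2/12 cells with serotonin were lowest, at means of 8.26 and 9.07, apart from the next group. Keap1 was highest in A2/12 controls (8.03), and the other groups overlapped their neighbours in its order. For Nqo1, A2/12 controls were second (8.05) and the remaining groups overlapped, at means of 7.47 to 7.54.

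Other genes of the same pathways were taken from lists by role, written with general knowledge and with earlier results of these data known. Of 129 listed genes, 113 were measured, and 105 of these lay above background, as did 12758 of the 18820 genes. The shares of all genes given below thus include a larger part at background than the lists do. In E46 cells labelled 100, 37 rose (32.7%) and 32 fell (28.3%), against 20.3% and 19.3% of all genes. Of these genes 34 (30.1%) rose in A2/12 cells and 45 fell (39.8%), against 24.8% and 21.1%. The E46 response was the higher for 31 (27.4%) and the lower for 16 (14.2%), against 11.1% and 10.9%. The shares of single lists below are to be read against these same shares of all genes, and some lie near them. At the dose labelled 1, none of the 113 passed the test (limma), as for the 10 genes.

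Among 18 regulators and partners, 7 rose (38.9%) and 2 fell (11.1%) in E46 cells. In A2/12 cells 7 rose (38.9%) and 4 fell (22.2%). The small MAF genes, partners of NRF2 on the DNA, rose in both lines. Mafg changed by 1.15 ± 0.09 in E46 and 0.96 ± 0.09 in A2/12, Maff by 1.49 ± 0.11 in E46 and 1.71 ± 0.11 in A2/12, and Mafk by 0.89 ± 0.11 in E46 and 1.36 ± 0.11 in A2/12, the last a difference between lines that passed the test (limma, adjusted p = 0.0304). Sqstm1, an autophagy receptor that binds KEAP1, rose by 0.64 ± 0.06 in E46 and 0.51 ± 0.06 in A2/12 cells.

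The glutathione list (14 measured) had 6 genes that rose (42.9%) and 4 that fell (28.6%) in each line. Slc7a11, which imports cystine, rose by 3.17 ± 0.14 in E46 and 1.11 ± 0.14 in A2/12, a difference of 2.06 ± 0.20 (limma, adjusted p = 1.33e-07). The 2 subunits of glutamate-cysteine ligase also rose more in E46. Gclc changed by 1.90 ± 0.08 in E46 and 0.87 ± 0.08 in A2/12 (difference 1.02 ± 0.12, limma, adjusted p = 1.29e-06), and Gclm by 1.51 ± 0.07 in E46 and 1.17 ± 0.07 in A2/12 (difference 0.34 ± 0.10, adjusted p = 0.0161). Chac1, which degrades glutathione, rose less in E46 (1.69 ± 0.08) than in A2/12 (2.40 ± 0.08; difference -0.71 ± 0.12, limma, adjusted p = 9.36e-05).

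Conjugation had the largest excess of falls among the lists in both lines. The list includes the mu-class genes Gstm2, Gstm3, Gstm4, Gstm6 and Gstm7. Their probes, like those of Gstm1, may read more than 1 gene, so their changes may not be separate. Of 18 measured genes 2 rose and 9 fell in E46 cells (median -0.24), and 2 rose and 13 fell in A2/12 cells (median -0.69), and 6 had the higher and 1 the lower response in E46. The transferases Mgst3 (-2.36 ± 0.16 in E46, -2.43 ± 0.16 in A2/12) and Gstt1 (-2.36 ± 0.15 in E46, -2.90 ± 0.15 in A2/12) fell in both lines, and their differences between the lines did not pass (limma, adjusted p = 0.884 and 0.0671). Like Gstm1, Gstm2 fell less in E46 (-1.03 ± 0.12) than in A2/12 (-2.83 ± 0.12; limma, adjusted p = 1.32e-07), as did Gstm7 (-1.51 ± 0.10 in E46 and -2.33 ± 0.10 in A2/12; adjusted p = 0.000199). Gsto1, an omega-class transferase, rose by 0.47 ± 0.07 in E46 and by 1.44 ± 0.07 in A2/12 cells.

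In the thioredoxin and peroxiredoxin list (14 measured), 4 rose and 6 fell in E46, and 5 rose and 7 fell in A2/12. Sesn2, a stress-induced sestrin, rose by 2.15 ± 0.11 in E46 and 1.65 ± 0.11 in A2/12, while its relatives fell, Sesn1 by 1.35 in E46 and 1.74 in A2/12, and Sesn3 by 1.04 in E46 and 2.08 in A2/12. Txnip, which binds and inhibits thioredoxin, fell by 1.32 in E46 and by 0.66 in A2/12. Txn2, the mitochondrial thioredoxin, rose by 0.51 ± 0.06 in E46 and 1.03 ± 0.06 in A2/12. Each of these 5 genes had a difference between the lines that passed the test (limma, adjusted p 9.36e-06 to 0.0255).

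The list for reduction or oxidation of quinones, carbonyls and aldehydes also held esterases such as Esd. Of its 19 measured genes, 6 rose and 6 fell in E46 cells (31.6% each). In A2/12 cells 4 rose (21.1%) and 8 fell (42.1%). Aldh3a1, an aldehyde dehydrogenase, behaved like Nqo1 in direction, with 0.84 ± 0.11 in E46 and -2.89 ± 0.11 in A2/12, a difference of 3.73 ± 0.16 (limma, adjusted p = 1.24e-12). Akr1c14, an aldo-keto reductase, fell by 1.17 in E46 and by 3.86 in A2/12 (difference 2.69 ± 0.25, limma, adjusted p = 5.79e-08). Cyb5r1 (1.77 ± 0.08 in E46, 2.01 ± 0.08 in A2/12) and Esd (1.18 ± 0.07 in E46, 1.45 ± 0.07 in A2/12) rose in both lines, and Ptgr1, which reduces prostaglandins and enals, fell in both (-1.19 ± 0.08 in E46, -1.41 ± 0.08 in A2/12). Differences between the lines did not pass for these 3 (limma, adjusted p 0.0638 to 0.223).

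Of 6 genes of NADPH supply, 3 rose and 1 fell in E46 and 2 rose and 2 fell in A2/12. Pgd, of the pentose phosphate pathway, rose by 0.82 ± 0.08 in E46, while it was at 0.07 ± 0.08 in A2/12 (difference 0.75 ± 0.12, limma, adjusted p = 5.79e-05). Tkt (0.55 ± 0.08 in E46, 0.70 ± 0.08 in A2/12) and Taldo1 (0.44 ± 0.10 in E46, 0.78 ± 0.10 in A2/12), of the non-oxidative branch, rose in both lines. Idh1, the cytosolic isocitrate dehydrogenase, fell by 1.39 in E46 and by 2.08 in A2/12 (difference 0.70 ± 0.20, limma, adjusted p = 0.0134).

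The heme and iron list beside Hmox1 (10 measured) had 6 genes that rose and 2 that fell in E46, and 4 and 2 in A2/12. Cpox, an enzyme of heme synthesis, rose by 2.29 ± 0.09 in E46 and 0.93 ± 0.09 in A2/12 (limma, adjusted p of the difference 1.10e-07). Transporters rose less in E46 than in A2/12, namely the transferrin receptor Tfrc (1.21 ± 0.13 in E46, 1.94 ± 0.13 in A2/12), the heme transporter Slc48a1 (0.78 ± 0.08 in E46, 1.39 ± 0.08 in A2/12) and the iron transporter Slc11a2 (0.89 ± 0.10 in E46, 1.32 ± 0.10 in A2/12), with adjusted p of the differences of 0.00439, 0.00019 and 0.0239 (limma).

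Of 9 efflux pumps, 2 rose (22.2%) and 1 fell (11.1%) in E46 cells, against 20.3% and 19.3% of all genes. In A2/12 cells 4 rose (44.4%) and 3 fell (33.3%), against 24.8% and 21.1%. Abcc4 rose by 2.94 ± 0.11 in E46 and 1.70 ± 0.11 in A2/12 (limma, adjusted p of the difference 2.90e-06), Abcc1 by 0.76 ± 0.07 in E46 and 1.11 ± 0.07 in A2/12 (adjusted p = 0.0112). Abcb1b was at -0.13 ± 0.10 in E46, where no change was called, and rose by 1.24 ± 0.10 in A2/12 (limma, adjusted p of the difference 4.28e-07). Abcg2 fell in both lines, by 0.82 in E46 and 1.05 in A2/12. Of 5 genes that remove superoxide and peroxide, 1 rose and 1 fell in E46 and 0 rose and 2 fell in A2/12. Sod3, the secreted superoxide dismutase, fell by 2.45 in E46 and 1.55 in A2/12, and Cat, catalase, rose by 0.36 ± 0.06 in E46 and was at -0.05 ± 0.06 in A2/12. Sod1 was at -0.06 ± 0.05 in E46 and fell by 0.13 in A2/12 (limma, adjusted p = 0.0472), lost in 15 of the 20 fits that left out 1 array and with a replicate block (adjusted p = 0.0676).

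**Figure D4:**
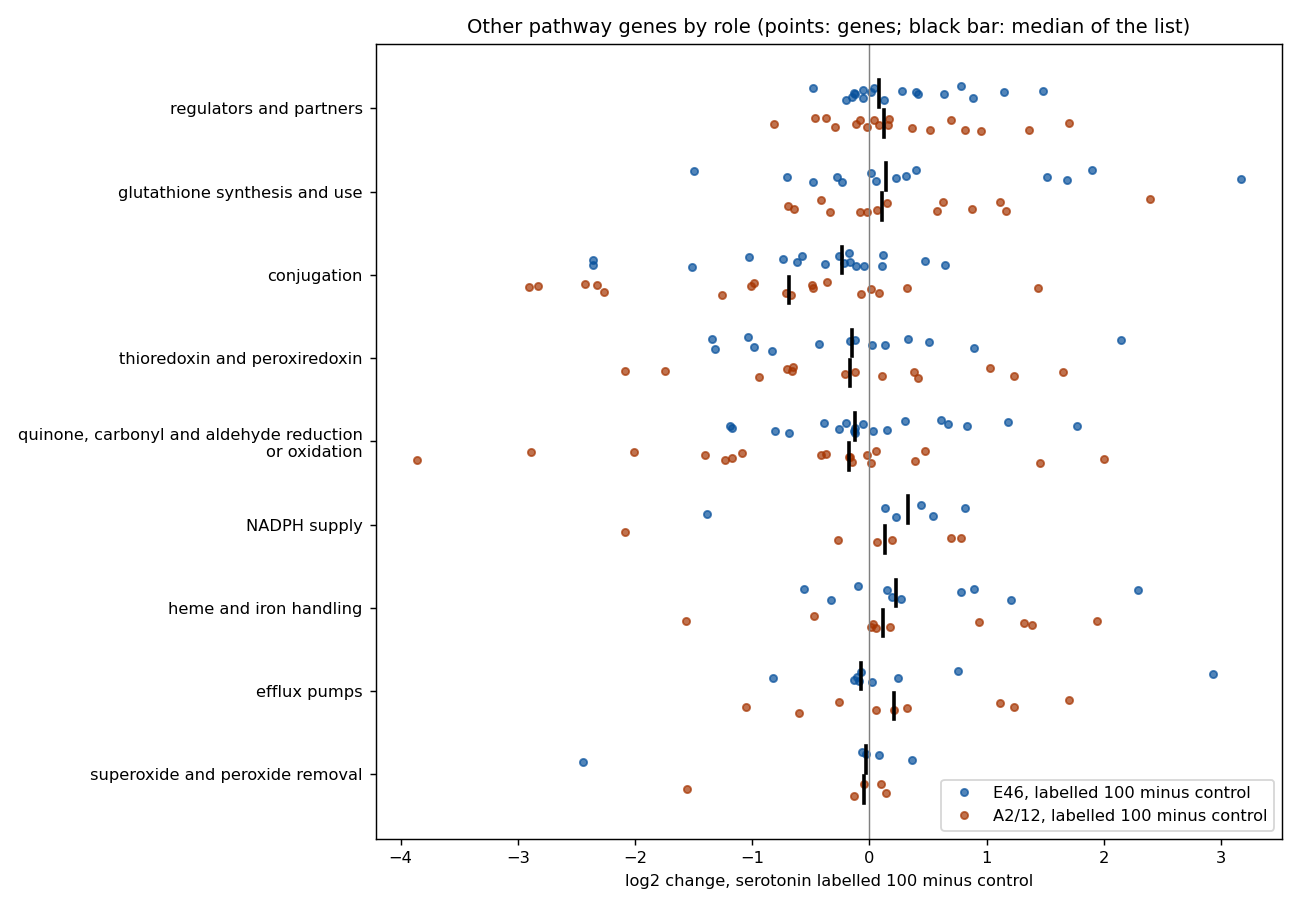
Log2 change with serotonin labelled 100 minus control (x axis) of the 113 other pathway genes measured, by role (y axis), in E46 cells (blue, upper row of each pair) and A2/12 cells (brown, lower row). Points are genes and black bars are list medians, without an error. The conjugation list has medians of -0.24 and -0.69, and in A2/12 cells the other medians lie between -0.17 and 0.21.

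As a description over the 20 arrays, which share 5 group means, Ephx1 and Gstm1 were correlated most among the 10 genes (r = 0.973), followed by Txnrd1 and Srxn1 (0.92), Nfe2l2 and Gsta4 (0.911), Hmox1 and Txnrd1 (0.899), Srxn1 and Gsta4 (0.893) and Nqo1 and Gsta4 (0.861). Hmox1 and Ephx1 ran opposite (-0.803). Of the 12758 genes above background, those most like each member whose group means span at least 1 log2 unit were named by Pearson's r over the same 20 arrays. They were Bcat1 (0.994) and Pabpc4 (0.993) for Hmox1, Xpot (0.991) and Mpp6 (0.988) for Txnrd1, and Abcc4 (0.982) and Cpox (0.98) for Srxn1. For Ephx1 they were Slc25a12 and Plce1 (both 0.994), for Gstm1 its paralog Gstm3 (0.994) and Smim14 (0.99), and for Gsta4 Aldh1l2 (0.97) and Ak4 (0.967). Probes of the paralogs Gstm1 and Gstm3 may read more than 1 mu-class gene. Nqo1 had the lowest values, with 1810010H24Rik (0.952) and Flrt1 (0.946).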

How the data were processed

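Per the submitters' processing notes the values were made with RMA, which corrects background, normalizes between arrays and summarises probes, and the deposited table holds log2 values for 35556 probe sets on 20 arrays. The sources used here for the array values do not name a genome build, while the promoter windows are on GRCm38.p6. Of the probe sets, 21218 have 1 gene symbol, 1881 several and 12457 none, and 21185 were matched to current symbols by Entrez ID. This left 18820 genes, 1386 of them with several probe sets.

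All 20 arrays were fitted with limma 3.58.1 (R 4.3.3) as 5 group means, with 15 residual degrees of freedom and Benjamini-Hochberg adjustment over all genes of a comparison, called at an adjusted p under 0.05. The fit was tested on simulated data. The members and lists were chosen with earlier results of these data known. Other genes named were the 3 with the smallest adjusted p among those called per role list and line, and the 2 most correlated with each member whose group means span 1 log2 unit. Alternatives changed the normalization, variance model, filter, probe set choice, arrays, blocks and dose label. Same-numbered arrays of different groups had correlated deviations in 14 of 40 pairs (r over 0.1, median -0.014). Differently numbered arrays had them in 39 of 120 pairs (median -0.009), so the replicate numbers were not taken as pairs.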

Additional observations from a re-analysis of the deposited data

Results flagged for a closer look

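In 4 of the 50 sets of 4 arrays (10 genes in 5 groups) 1 array stood apart by Dixon's test, which chance gives in about 5% of sets. Nfe2l2 was 11.28 on E46 labelled 100 replicate 4, against 11.21 on the other arrays of the group. Txnrd1 was 8.45 on E46 control replicate 1, against 8.67 to 8.69, and 9.29 on A2/12 serotonin replicate 3, against 9.53 to 9.55. Ephx1 was 10.61 on E46 labelled 1 replicate 3, against 10.75 to 10.77.

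The response to serotonin labelled 100 differed between E46 and A2/12 cells for 9 genes by the limma test of the difference (E46 minus A2/12, log2). The differences were 2.26 for Nqo1, 1.86 for Ephx1, 1.76 for Gstm1, 1.64 for Gsta4, 0.63 for Srxn1, 0.53 for Keap1, 0.48 for Txnrd1, 0.45 for Nfe2l2 and 0.29 for Hmox1.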

How the results depend on the processing

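Of 60 changes (10 genes, 6 comparisons), 43 were called. Of these, 38 kept call and sign in every one of 35 alternative fits other than the position numbers fitted alone and the doses of the description. The 5 exceptions are given in the report with their arrays (Osgin1 in A2/12, the Hmox1 difference between the lines, Srxn1 between controls, and Keap1 and Gstm1 between the E46 doses); Osgin1 in A2/12 also missed the threshold with median centring (0.23, adjusted p = 0.0699), without arrays of low upper quartile (0.20, adjusted p = 0.0545) and without E46 control replicate 3 and A2/12 control replicate 4 (0.24, adjusted p = 0.0744). The last pair, chosen from earlier results of these data, also took the Srxn1 difference between controls to 0.26 (adjusted p = 0.0837), and the low-quartile arrays the Hmox1 difference to 0.24 (adjusted p = 0.0534). Of 17 uncalled changes, 16 crossed 0 in at least 1 alternative. The replicate block changed the call of no gene of the 10, with 9 called in E46 labelled 100 against control and 8 in A2/12. Of the other pathway genes named, Sod1 in A2/12 lost its call with the replicate block (-0.13, adjusted p = 0.0676), the position number as a block (adjusted p = 0.0681), quantile normalization (-0.09, adjusted p = 0.195), the mean of all probe sets (adjusted p = 0.0826), each line fitted alone (adjusted p = 0.12) and without the same pair of control arrays (adjusted p = 0.0718).

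Fewer genes were called within 1 position number, which leaves at most 2 arrays a group. The share of all genes called in these fits was not counted, so the counts are not read as a result about the 10 genes. For E46 labelled 100 against control 5 were called within number 7 and 5 within number 9, in place of 9. Against E46 labelled 1, the counts within numbers 5, 7 and 9 were 5, 6 and 5, in place of 10. For A2/12, 3 were called within number 9, in place of 8. For the difference between the lines, the counts were 4, 4 and 0, in place of 9, and between controls 3, 3 and 0, in place of 7.

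With the doses of the description, the E46 groups labelled 100 and 1 change places by construction, so 0 genes were called for 100 against control and 9 for 1 against control. Keap1, not called either way, became -0.187 in 100 against control and 0.093 in 1 against control. Other signs turned in 100 against control for Nfe2l2 (-0.037), Srxn1 (-0.063), Gstm1 (0.014), Osgin1 (-0.108), Mafg (-0.154), Maff (-0.209), Sqstm1 (-0.017), Slc7a11 (-0.011), Sesn2 (-0.077), Cyb5r1 (-0.085), Esd (-0.052), Idh1 (0.274), Pgd (-0.05), Tkt (-0.159), Cpox (-0.033), Abcc4 (-0.127), Abcc1 (-0.156) and Cat (-0.026). In 1 against control, signs of genes then called turned for Nfe2l2 (0.40), Srxn1 (1.28), Gstm1 (-0.35) and Osgin1 (0.32). Between the doses they turned for Nfe2l2 (-0.44), Keap1 (-0.28), Hmox1 (-1.94), Nqo1 (-1.68), Txnrd1 (-1.32), Srxn1 (-1.35), Ephx1 (0.49), Gstm1 (0.37), Gsta4 (-1.75) and Osgin1 (-0.43). In the difference between the lines they turned for Hmox1 (-1.66), Txnrd1 (-0.84), Srxn1 (-0.72), Gsta4 (-0.12) and Osgin1 (-0.37).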
